A study of Homo sapiens with 70 samples.

Results

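The RAS response that IMR90 human lung fibroblasts still made with C/EBPβ and p53 both knocked down was examined. The members were 10 of the 70 libraries of the series, chosen by their labels: 5 OIS-shCEBPB-shp53 libraries and 5 Grow-v-v libraries. All 10 came from cells that carried pLNCX2 ER:HRAS G12V, a fusion of HRAS with the hormone-binding part of the oestrogen receptor that is switched on by 4OHT (4-hydroxytamoxifen). OIS-shCEBPB-shp53 cells also carried pSuper CEBPB and pMSCV miR p53, the vectors for knock-down of the 2 factors, and were treated with 100 nM 4OHT for 6 days. Grow-v-v cells carried both empty vectors, pSuper v and pMSCV miR v, and were taken at day 0. The 5 OIS-v-v libraries, with both empty vectors and the same 6 days of 100 nM 4OHT, served as the RAS response of cells with both factors. Another experiment of the series gave 8 Grow and 8 OIS libraries, which served to choose RAS response genes on separate libraries. Both groups of that experiment carried the empty vector pMSCV miR v, and its OIS cells had 6 days of 100 nM 4OHT. The question was which part of the RAS response remained in the absence of both factors and which part was lost or added. No library of growing cells with both knock-downs was analysed here, so the effect of RAS and that of the knock-downs in growing cells cannot be told apart in OIS-shCEBPB-shp53 against Grow-v-v.

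Oncogenic RAS drives the RAF, MEK and ERK kinase cascade, whose sustained activity in fibroblasts leads to a stable proliferative arrest called oncogene-induced senescence (OIS). p53 contributes to this arrest by inducing genes such as CDKN1A, the gene of the CDK inhibitor p21, while CDKN2A, which encodes p16, acts in parallel through RB. C/EBPβ, a bZIP transcription factor encoded by CEBPB, drives the inflammatory secretome of senescent cells, the senescence-associated secretory phenotype (SASP), and cells that lack either factor can escape the arrest.

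The unit of the files is a read count per gene, given here as CPM (counts per 1000000 counts of the library, with TMM factors). In units of 1000000, the total counts per library ran from 14.5 to 20.4 in Grow-v-v, from 15.9 to 18.4 in OIS-shCEBPB-shp53 and from 16.5 to 18.7 in OIS-v-v. In the separate experiment they ran from 13.9 to 21.3 in Grow and from 1.9 to 18.5 in OIS, where replicate 4 was the lowest. In every group, replicates 1 to 3 and replicates 4 and 5 formed 2 sets of libraries that stood apart. Pearson's r of log2(CPM + 1), across genes, was 0.9966 to 0.9977 within replicates 1 to 3, 0.9908 to 0.9973 between replicates 4 and 5 and 0.9728 to 0.9928 between the sets. The labels name no batch, and within-set values are given beside some of the genes and lists whose size or sign differed between the sets. In bulk RNA, fewer cells of a type and less RNA per cell cannot be told apart.

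CEBPB was low in the double knock-down. This targeted gene (hg19 chromosome 20, 48807376 to 48809212 on the plus strand) was at 168, 187, 189.6, 159 and 189.7 CPM in Grow-v-v replicates 1 to 5, at 296, 286, 329, 259 and 306 CPM in OIS-v-v and at 31.4, 34.3, 38.9, 28.4 and 29.8 CPM in OIS-shCEBPB-shp53. All 5 double knock-down libraries lay below every Grow-v-v and OIS-v-v library, and the log2 fold change against Grow-v-v was -2.45 ± 0.07 (SE, edgeR adjusted p = 1.07e-07). HRAS, whose reads do not separate the endogenous gene from the ER:HRAS transgene, was at 1429, 1430, 1499, 1448 and 1842 CPM in Grow-v-v, 1319, 1287, 1303, 1047 and 1197 CPM in OIS-v-v and 643, 633, 670.4, 681 and 682 CPM in OIS-shCEBPB-shp53. The double knock-down libraries were therefore the lowest in HRAS, with a log2 difference from OIS-v-v of -0.90 ± 0.06 (adjusted p = 1.48e-06), and the part of this in the results was not tested.

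Transcripts passed the test in similar numbers with and without the 2 factors, but fewer fell by at least 2-fold without them. Of 13395 genes tested in OIS-shCEBPB-shp53 against Grow-v-v, 3491 were higher (26.1%) and 3585 lower (26.8%) at an adjusted p under 0.05 in edgeR, among them 840 higher and 827 lower by at least 2-fold. In OIS-v-v against Grow-v-v, which shares the Grow-v-v libraries, 3307 of 13344 genes were higher (24.8%) and 3319 lower (24.9%). Among these, 858 were higher and 1133 lower by at least 2-fold. The test of the difference, OIS-shCEBPB-shp53 against OIS-v-v, called 2938 of 13388 genes higher (21.9%) and 2868 lower (21.4%). When scaled by library size with no TMM factor, 60.8% of the calls against Grow-v-v were higher in place of 49.3%, and 71.4% of those against OIS-v-v in place of 50.6%, and no gene called under both scalings changed sign.

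Most of the transcripts that RAS raised or lowered in the separate experiment moved the same way without C/EBPβ and p53. In OIS against Grow of that experiment, 1097 of 13304 genes were RAS-raised (8.25%) and 1477 RAS-lowered (11.1%), each at an adjusted p under 0.05 and a fold change of at least 2. Of the 942 RAS-raised genes that could be tested in OIS-shCEBPB-shp53 against Grow-v-v, 682 were higher and 30 lower, where 26.1% and 26.8% of all genes were, and their median log2 fold change was 0.93, where the median of all genes was near 0. In OIS-v-v against Grow-v-v, 804 of 969 were higher and 4 lower, with a median of 1.2. Of 1415 RAS-lowered genes tested, 1129 were lower and 60 higher in the double knock-down, with a median of -0.82, against 1264 of 1398 lower in OIS-v-v, with a median of -1.27. The RAS-raised medians within the 2 sets of libraries were 0.90 in replicates 1 to 3 and 1.06 in replicates 4 and 5, and the RAS-lowered medians were -0.76 and -0.92.

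The change of these RAS response genes was smaller than with both factors present. They were chosen in cells with both factors, so that genes responding more without the factors could be left out. Against OIS-v-v, 439 of 1004 RAS-raised genes were lower in OIS-shCEBPB-shp53 and 171 higher, with a median of -0.24, beside 21.4% and 21.9% of all genes. Among RAS-lowered genes, 829 of 1358 were higher than in OIS-v-v and 128 lower, with a median of 0.45. The 95% interval of this difference lay within a 1.5-fold change either way for 368 of the 1004 RAS-raised (36.7%) and 442 of the 1358 RAS-lowered genes (32.5%), and for 9053 of all 13388 genes (67.6%).

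**Figure D1:**
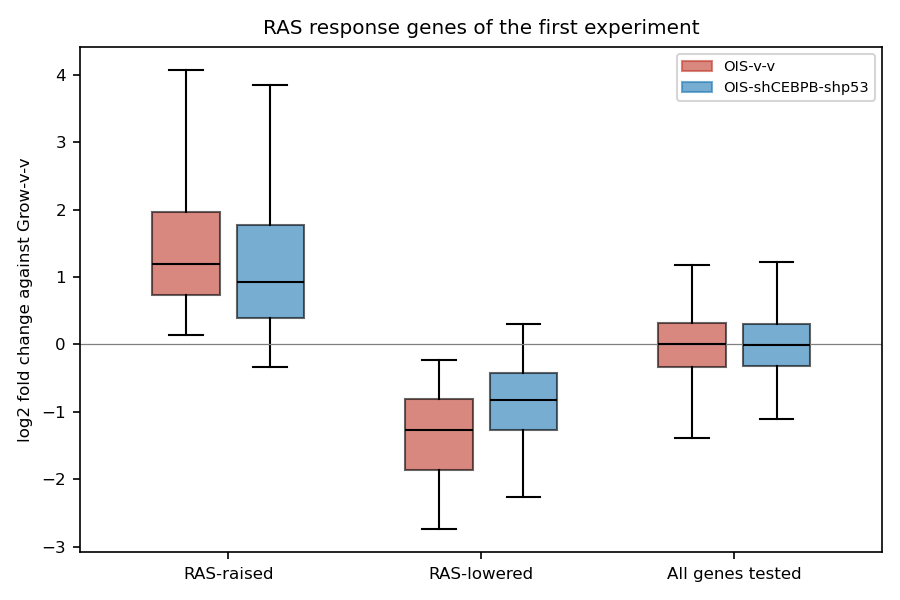
Log2 fold changes against Grow-v-v (vertical axis) of the RAS-raised genes, the RAS-lowered genes and all genes tested, in OIS-v-v (red) and in OIS-shCEBPB-shp53 (blue). Boxes span the quartiles with the median as a line, and whiskers reach the 5th and 95th percentiles over genes. The blue medians, 0.93 and -0.82, lie nearer to 0 than the red ones, 1.2 and -1.27.

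Named examples of the retained rise were genes whose 95% interval against OIS-v-v lay within 1.5-fold either way. CYP26B1, a cytochrome that degrades retinoic acid, was at 10.5, 12.7, 11, 2.98 and 1.46 CPM in Grow-v-v, 184, 189, 168, 246 and 287 CPM in OIS-v-v and 248, 244, 232, 248 and 255 CPM in OIS-shCEBPB-shp53. Every RAS library exceeded every Grow-v-v library, and the double knock-down differed from Grow-v-v by 5.12 ± 0.40 (adjusted p = 1.5e-05) on the log2 scale, with 4.42 within replicates 1 to 3 and 6.83 within replicates 4 and 5. ANKRD33, an ankyrin repeat gene, rose from 0 to 0.221 CPM to 3.27 to 4.95 CPM, beside 4.43 to 5.76 CPM in OIS-v-v. RPLP0P2, a pseudogene copy of the ribosomal gene RPLP0 whose reads may be split with its parent, was at 2.3 to 5.22 CPM in Grow-v-v and 109.9 to 148 CPM in the double knock-down. The other 2 genes were the unnamed ENSG00000227363, at 11.1 to 13.7 CPM in the double knock-down and 9.15 to 15.1 CPM in OIS-v-v, and ENSG00000227844, at 2.21 to 4.02 and 2.46 to 4.25 CPM, with at most 0.279 and 0.221 CPM in any Grow-v-v library.

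The retained fall was led by CHRM2, a muscarinic acetylcholine receptor, and by 4 smooth muscle genes. CHRM2 was at 118, 109, 98.5, 104 and 69 CPM in Grow-v-v and 12, 14.5, 11.5, 11.4 and 9.71 CPM in OIS-shCEBPB-shp53, a log2 fold change of -3.06 ± 0.09 (adjusted p = 9.13e-08), beside 13.2 to 15.3 CPM in OIS-v-v. ACTA2, which encodes smooth muscle actin, was at 612, 568, 597, 617 and 553 CPM in Grow-v-v and 90.8, 93.5, 101, 87.2 and 74.5 CPM in the double knock-down (-2.72 ± 0.08, adjusted p = 8.34e-08), beside 51.2 to 94.1 CPM in OIS-v-v. For both genes the double knock-down lay below every Grow-v-v library and overlapped OIS-v-v. TAGLN, CNN1 and ACTG2, which encode transgelin, calponin and another smooth muscle actin, had log2 fold changes of -3.00, -2.47 and -2.44 in the double knock-down and -2.84, -2.50 and -2.70 in OIS-v-v. A level near OIS-v-v did not mean the same level in the single knock-downs described below. ACTA2, TAGLN, CNN1, ACTG2 and CHRM2 differed from OIS-shp53 by 1.19, 0.33, 0.18, 0.49 and -0.39 on the log2 scale. From OIS-shCEBPB they differed by -0.71, -0.71, -0.17, -0.20 and -0.25.

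Of the genes raised by RAS in the separate experiment and not in the double knock-down, SERPINB4, a serpin peptidase inhibitor, came first. It was at 1.59, 1.66, 1.16, 0.474 and 1.18 CPM in Grow-v-v, 97, 90.8, 93.5, 27 and 29.4 CPM in OIS-v-v and 1.06, 1.5, 1.34, 0.742 and 0.715 CPM in OIS-shCEBPB-shp53. The double knock-down overlapped Grow-v-v and lay below OIS-v-v in every library, with a log2 difference from OIS-v-v of -5.95 ± 0.13 (adjusted p = 2.75e-10). MEDAG, a regulator of fat cell formation, and IL13RA2, the decoy receptor for IL-13, rose in OIS-v-v (2.49 and 2.18) and fell in the double knock-down (-1.32 and -1.46). MRGPRX3, a G protein-coupled receptor, was at 2.64 to 20.1 CPM in OIS-v-v and 0.0596 to 1.61 CPM in the double knock-down, a log2 difference of -3.86 ± 0.16 (adjusted p = 3.09e-08). HSD11B1, which regenerates cortisol from cortisone, rose in the separate experiment (1.62, adjusted p = 1.79e-06), whereas here OIS-v-v differed from Grow-v-v by 0.11 (adjusted p = 0.837). It was at 2.92, 2.55, 3.14, 0.678 and 0.975 CPM in Grow-v-v, 2.2, 1.89, 1.57, 2.38 and 2.4 CPM in OIS-v-v and 0.0531, 0.107, 0.0583, 0 and 0.0596 CPM in the double knock-down, a log2 difference from OIS-v-v of -5.08 ± 0.37 (adjusted p = 1.81e-06).

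The genes lowered by RAS in the separate experiment and not in the double knock-down included SLC7A14, a lysosomal amino acid transporter. It was at 4.81, 4.1, 3.64, 2.98 and 1.25 CPM in Grow-v-v, 1.19, 0.768, 0.873, 0.216 and 0.12 CPM in OIS-v-v and 22.8, 22.5, 21.9, 11.8 and 10.3 CPM in OIS-shCEBPB-shp53, so that it fell in OIS-v-v (-2.45 ± 0.27, adjusted p = 0.000135) and rose in the double knock-down (2.43 ± 0.14, adjusted p = 2.31e-06). APCDD1, an inhibitor of WNT signalling, fell by 2.74 in OIS-v-v on the log2 scale and differed from Grow-v-v by 0.45 ± 0.12 (adjusted p = 0.0124) in the double knock-down, with 0.66 in replicates 1 to 3 and 0.13 in replicates 4 and 5, and it did not pass the test once the libraries of each set were summed (0.41, adjusted p = 0.126). TNFSF18, the ligand of the GITR receptor, moved from 1.08 to 5.46 CPM in Grow-v-v to 0.961 to 2.36 CPM in OIS-v-v and 5.83 to 17.9 CPM in the double knock-down. IFI27 and IFIT1, the other genes named by this rule, are interferon-stimulated and are described with that list. IFI27 was lowered in the separate experiment but rose in OIS-v-v here (1.47, adjusted p = 0.00199).

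Most ERK feedback and output genes rose without the 2 factors. Of 23 ERK feedback and output genes, 21 rose in OIS-shCEBPB-shp53 against Grow-v-v and none fell, with a median log2 fold change of 1.26, where 26.1% of all genes were higher, and in OIS-v-v 17 rose and 1 fell, with a median of 1.22. DUSP4, a phosphatase that switches off ERK, was at 10.6, 10.2, 11.5, 3.73 and 3.27 CPM in Grow-v-v, 123, 128, 123, 48.1 and 53 CPM in OIS-v-v and 117, 107, 109, 59.6 and 59.4 CPM in OIS-shCEBPB-shp53. All RAS libraries exceeded all Grow-v-v libraries in spite of the spread between the sets of libraries, and the double knock-down differed by 3.60 ± 0.14 (adjusted p = 3.59e-07) from Grow-v-v and by -0.03 ± 0.08 from OIS-v-v. SPRY4, an inhibitor of receptor signalling to RAS, was at 111, 128, 118, 117 and 126 CPM in Grow-v-v and 334, 339, 313, 343 and 339 CPM in the double knock-down (1.48 ± 0.06, adjusted p = 5.91e-07). DUSP5, another ERK phosphatase, rose by 2.21 ± 0.19 and EGR3, an immediate early transcription factor, by 3.69 ± 0.18 on the log2 scale. The AP-1 motif, TGACTCA or TGAGTCA (each the reverse complement of the other), was in the promoter windows of 2 of 13 matched genes of the list that rose (15.4%), beside 6.05% of all genes, in windows of 300 bases around RefSeq starts.

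Some members rose less than in OIS-v-v. DUSP6, the ERK phosphatase of the cytoplasm, was at 91, 95.5, 99.5, 51.9 and 61.7 CPM in Grow-v-v, 518, 481, 519, 619 and 575 CPM in OIS-v-v and 353, 356, 347, 326 and 328 CPM in OIS-shCEBPB-shp53, and the 3 groups did not overlap (log2 difference from OIS-v-v -0.67 ± 0.07, adjusted p = 2.28e-05). IER3, an early gene that promotes survival, was at 371 to 443 CPM in Grow-v-v, 1532 to 1788 CPM in OIS-v-v and 833 to 941 CPM in the double knock-down (-0.94 ± 0.05, adjusted p = 1.4e-07 from OIS-v-v). Against OIS-v-v, 10 of the 23 genes were higher and 8 lower, beside 21.9% and 21.4% of all genes. MYC, the growth-promoting transcription factor, rose by 1.26 ± 0.19 (adjusted p = 0.000596), with 1.69 within replicates 1 to 3 and 0.68 within replicates 4 and 5. The 2 members that did not pass the test were ETV5 and FOSL1, an AP-1 subunit with a log2 fold change of -0.27 ± 0.19 (adjusted p = 0.279) that had opposite signs in the 2 sets of libraries (0.15 and -0.90).

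The EGF family ligands signal to the receptors upstream of RAS. EREG, which encodes epiregulin, was at 60.2, 50.8, 48.9, 29.8 and 32 CPM in Grow-v-v, 345, 333, 330.3, 607 and 471 CPM in OIS-v-v and 94.3, 102, 87.5, 164 and 172 CPM in OIS-shCEBPB-shp53. It rose against Grow-v-v by 1.47 ± 0.28 (adjusted p = 0.00229) and differed from OIS-v-v by -1.78 ± 0.07 (adjusted p = 1.83e-08), with no overlap in either case, and its rise was 0.84 in replicates 1 to 3 and 2.45 in replicates 4 and 5. HBEGF rose by 1.33 ± 0.17 (adjusted p = 0.000232) and NRG1, which encodes neuregulin, by 1.36 ± 0.26 (adjusted p = 0.0024), which was 0.78 and 2.29 in the 2 sets. AREG, the gene of amphiregulin, had a log2 fold change of -0.38 ± 0.45 (adjusted p = 0.504) and opposite signs in the 2 sets of libraries (-1.16 and 1.25). Of the 7 members tested of 11, 3 rose and 2 fell in the double knock-down, where 26.1% of all genes were higher and 26.8% lower, while 5 rose and 2 fell in OIS-v-v. EGFR, the receptor, was at 210 to 297 CPM in Grow-v-v, 353 to 476 CPM in OIS-v-v and 229 to 270.5 CPM in the double knock-down.

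Of 12 AP-1 genes tested, which encode the FOS and JUN transcription factors and their partners, 5 rose and 3 fell, with a median of 0.21, where 26.1% of all genes were higher and 26.8% lower. FOSB went from 1.16 to 3.13 CPM in Grow-v-v to 6.42 to 11 CPM in the double knock-down (2.29 ± 0.14, adjusted p = 4.38e-06), beside 9.75 to 12.2 CPM in OIS-v-v. FOSL2 fell from 87.6 to 109 CPM to 37.5 to 42.1 CPM (-1.26 ± 0.07, adjusted p = 1.82e-06). Within the C/EBP family, 4 of 6 members could be tested. CEBPD, which encodes the related factor C/EBPδ, was at 69.1, 68.5, 73.3, 44.4 and 47.5 CPM in Grow-v-v, 109, 103, 117, 76.2 and 82.5 CPM in OIS-v-v and 146, 150, 149.9, 150.1 and 171 CPM in the double knock-down, with no overlap between any of the 3 groups (1.37 ± 0.13, adjusted p = 4.71e-05 against Grow-v-v).

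The 2 cell cycle inhibitor genes of the CDKN2A-CDKN2B locus rose in the double knock-down. CDKN2A, the locus of p16 and ARF, was at 9.0, 8.43, 10.5, 9.55 and 10.7 CPM in Grow-v-v, 29.6, 30.2, 27.1, 16.2 and 15.9 CPM in OIS-v-v and 51.6, 51.5, 53, 42.1 and 46.8 CPM in OIS-shCEBPB-shp53. Every double knock-down library exceeded every OIS-v-v library, with a log2 fold change of 2.35 ± 0.10 (adjusted p = 5.12e-07) against Grow-v-v and of 1.07 ± 0.11 (adjusted p = 2.93e-05) against OIS-v-v. CDKN2B, the neighbouring gene of the inhibitor p15, was at 13.9, 13.4, 13.3, 7.59 and 6.2 CPM in Grow-v-v and 105, 109.9, 103, 105 and 102 CPM in the double knock-down (3.32 ± 0.17, adjusted p = 1.56e-06), and its log2 difference from OIS-v-v was 0.12 ± 0.06 (adjusted p = 0.0979). CDKN2C, of the inhibitor p18, fell (-2.18 ± 0.16, adjusted p = 1.13e-05), as did E2F1 (-1.59 ± 0.14), a transcription factor of S phase entry. In all, 5 of 21 G1/S control genes rose (23.8%, beside 26.1% of all genes) and 12 fell (57.1%, beside 26.8%). CDK4, a kinase that phosphorylates RB and whose exons overlap those of another gene, rose by 0.61 ± 0.09 (adjusted p = 0.000401), while CDK6 fell (-0.95 ± 0.09, adjusted p = 5.04e-05).

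Most p53 target genes were lower than in OIS-v-v. CDKN1A was at 812, 881, 891, 665 and 652 CPM in Grow-v-v, 2025, 2002, 1954, 1152 and 1227 CPM in OIS-v-v and 674, 653, 654, 430 and 426 CPM in OIS-shCEBPB-shp53. It rose in OIS-v-v (1.08 ± 0.10, adjusted p = 4.39e-05) and fell in the double knock-down (-0.47 ± 0.08, adjusted p = 0.000882), where replicates 1 to 3 overlapped the lowest Grow-v-v libraries. With no replicate block, this fall lost its call without double knock-down replicate 4 or 5 (-0.36 each) or Grow-v-v replicate 2 or 3 (-0.40 each). Of 30 p53 target genes, 15 rose and 5 fell in OIS-v-v, while 6 rose and 15 fell in the double knock-down (9 without its replicate 5, in a fit with no replicate block), where 26.1% and 26.8% of all genes did. Against OIS-v-v, 24 were lower and 1 higher, with a median of -0.47. BTG2, an antiproliferative gene, went from 6.45, 7.48, 8.16, 4.07 and 4.25 CPM in Grow-v-v to 2.28, 2.47, 1.93, 0.795 and 0.596 CPM in the double knock-down (-1.94 ± 0.19, adjusted p = 5.84e-05), beside 6.55 to 14.2 CPM in OIS-v-v. FAS, a death receptor, fell from 35.5 to 43.6 CPM to 13.1 to 16.2 CPM (-1.40 ± 0.10, adjusted p = 7.59e-06), and the groups did not overlap for either gene.

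A few listed p53 targets still rose. GDF15, a stress-induced cytokine of the TGFβ family, was at 50.5, 60.1, 60.4, 17.4 and 17.1 CPM in Grow-v-v, 800.2, 779.9, 799, 410.3 and 446 CPM in OIS-v-v and 136, 132, 133, 59 and 60.8 CPM in OIS-shCEBPB-shp53. Its rise against Grow-v-v was 1.45 ± 0.12 (adjusted p = 1.64e-05), within overlapping ranges that separated inside each set of libraries, and its difference from OIS-v-v was -2.69 ± 0.06 (adjusted p = 2.75e-10). PLK2, a polo-like kinase, was at 155 to 225 CPM, above its 56.3 to 104 CPM in Grow-v-v (1.30 ± 0.08, adjusted p = 3.35e-06). MDM2, of the ubiquitin ligase that degrades p53, had a log2 fold change of 0.07 ± 0.14 (adjusted p = 0.685), with opposite signs in the 2 sets of libraries (-0.17 and 0.46).

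The proliferation programme was low, though less so than in OIS-v-v. Of 54 G2/M genes, 52 fell in OIS-shCEBPB-shp53 against Grow-v-v and none rose, with a median log2 fold change of -1.18, where 26.8% of all genes were lower. In OIS-v-v all 54 fell, with a median of -2.31, and 50 of the 54 were higher in the double knock-down than in OIS-v-v, with a median of 0.99. Their summed level was 5743 to 9445 CPM in Grow-v-v, 2205 to 2976 CPM in OIS-v-v and 3573 to 3815 CPM in the double knock-down, and no 2 of these ranges overlapped. The median against Grow-v-v was -0.85 within replicates 1 to 3 and -1.63 within replicates 4 and 5.

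Single genes of mitosis followed this order. CCNB2, which encodes a mitotic cyclin, was at 57.2, 50.7, 55.5, 83.2 and 95.7 CPM in Grow-v-v, 9.31, 7.86, 9.31, 15 and 14.7 CPM in OIS-v-v and 29.1, 31.6, 32.5, 26.2 and 24.4 CPM in OIS-shCEBPB-shp53. The 3 groups did not overlap, with a log2 difference of -1.20 ± 0.19 (adjusted p = 0.000763) from Grow-v-v, which was -0.80 and -1.81 in the 2 sets, and 1.36 ± 0.17 (adjusted p = 0.000121) from OIS-v-v. NEK2, a centrosome kinase, was at 28.4, 24.6, 24.6, 48.2 and 42.1 CPM, 4.12, 3.48, 3.43, 7.51 and 7.15 CPM and 16.2, 15.9, 15.3, 14 and 12.5 CPM in the same order, and differed from OIS-v-v by 1.54 ± 0.20 (adjusted p = 0.000161). MKI67, which encodes the Ki-67 marker of cycling cells, fell by 1.64 ± 0.15 (adjusted p = 3.61e-05) against Grow-v-v and was higher than in OIS-v-v by 0.79 ± 0.16. CDC20, an activator of the anaphase-promoting complex, and CENPA, the centromeric histone, were higher than in OIS-v-v by 1.28 ± 0.12 and 1.36 ± 0.16.

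Promoters of G2/M genes are known for the CHR element, TTTGAA, often with CCAAT boxes, through which the DREAM and MuvB complexes act. Promoters were read from RefSeq (GRCh38.p14), and the 120 bases directly before the most upstream start are shown for 3 G2/M genes described above, with CHR and CCAAT matches on either strand in capitals: CCNB2 at chr15:59105026-59105145 (+ strand), CDC20 at chr1:43358861-43358980 (+ strand) and CENPA at chr2:26785936-26786055 (+ strand).
CCNB2: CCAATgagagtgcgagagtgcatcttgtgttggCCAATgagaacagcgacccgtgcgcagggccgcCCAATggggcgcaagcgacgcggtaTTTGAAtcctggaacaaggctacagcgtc
CDC20: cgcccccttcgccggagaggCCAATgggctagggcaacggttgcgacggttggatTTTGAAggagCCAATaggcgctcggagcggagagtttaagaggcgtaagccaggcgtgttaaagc
CENPA: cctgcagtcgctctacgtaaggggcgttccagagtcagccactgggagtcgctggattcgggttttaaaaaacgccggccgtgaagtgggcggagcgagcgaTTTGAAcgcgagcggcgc
Of the 52 G2/M genes that fell, 43 were matched to promoter windows of 300 bases (250 before to 50 after a start), and 31 of these (72.1%) held TTTGAA, beside 18.2% of all 27305 genes of the table and 13.8% of the 10341 tested genes that were matched. CCAAT, counted separately, was in 31 of 43 as well, beside 39.7% of all genes and 43.1% of tested genes. A match to these letters is a description of the sequence and not a binding site.

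S phase genes, which copy DNA or supply its building blocks, fell as well. Of 42 tested, 38 fell and 1 rose in OIS-shCEBPB-shp53, with a median of -1.06, where 26.8% of all genes were lower and 26.1% higher. In OIS-v-v 38 fell and none rose, with a median of -1.55. Against OIS-v-v, 24 were higher and 1 lower, with a median of 0.40, beside 21.9% and 21.4% of all genes. The summed level was 1151, 1190, 1257, 1320 and 1221 CPM in the double knock-down and 819.3, 805.5, 834.7, 1224 and 1222 CPM in OIS-v-v. The 2 RAS groups were thus apart in replicates 1 to 3 and overlapped in replicates 4 and 5. MCM6, a subunit of the replicative helicase, was at 51.2, 48.8, 47.5, 53.6 and 58.9 CPM in Grow-v-v, 15, 15.2, 14.3, 15.2 and 16.2 CPM in OIS-v-v and 16.6, 16.1, 17.6, 14 and 12.2 CPM in the double knock-down. The 2 RAS groups overlapped, with a log2 difference of -0.01 ± 0.10 (adjusted p = 0.945) between them and of -1.76 ± 0.12 (adjusted p = 7.09e-06) from Grow-v-v. TYMS, which makes thymidylate, fell by 2.30 ± 0.20 (adjusted p = 2.8e-05) and PCNA, the sliding clamp, by 1.21 ± 0.12 (adjusted p = 4.61e-05). The member that rose was UNG, a uracil-DNA glycosylase, by 0.24 ± 0.08 (adjusted p = 0.0303), a call lost without replicate 1, 2, 3 or 4, at 0.19, 0.25, 0.25 and 0.25. The E2F motif, TTTCGCGC or TTTGGCGC on either strand, was in the promoter windows of 10 of 28 matched S phase genes that fell (35.7%), beside 1.40% of all genes and 2.48% of tested genes.

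**Figure D2:**
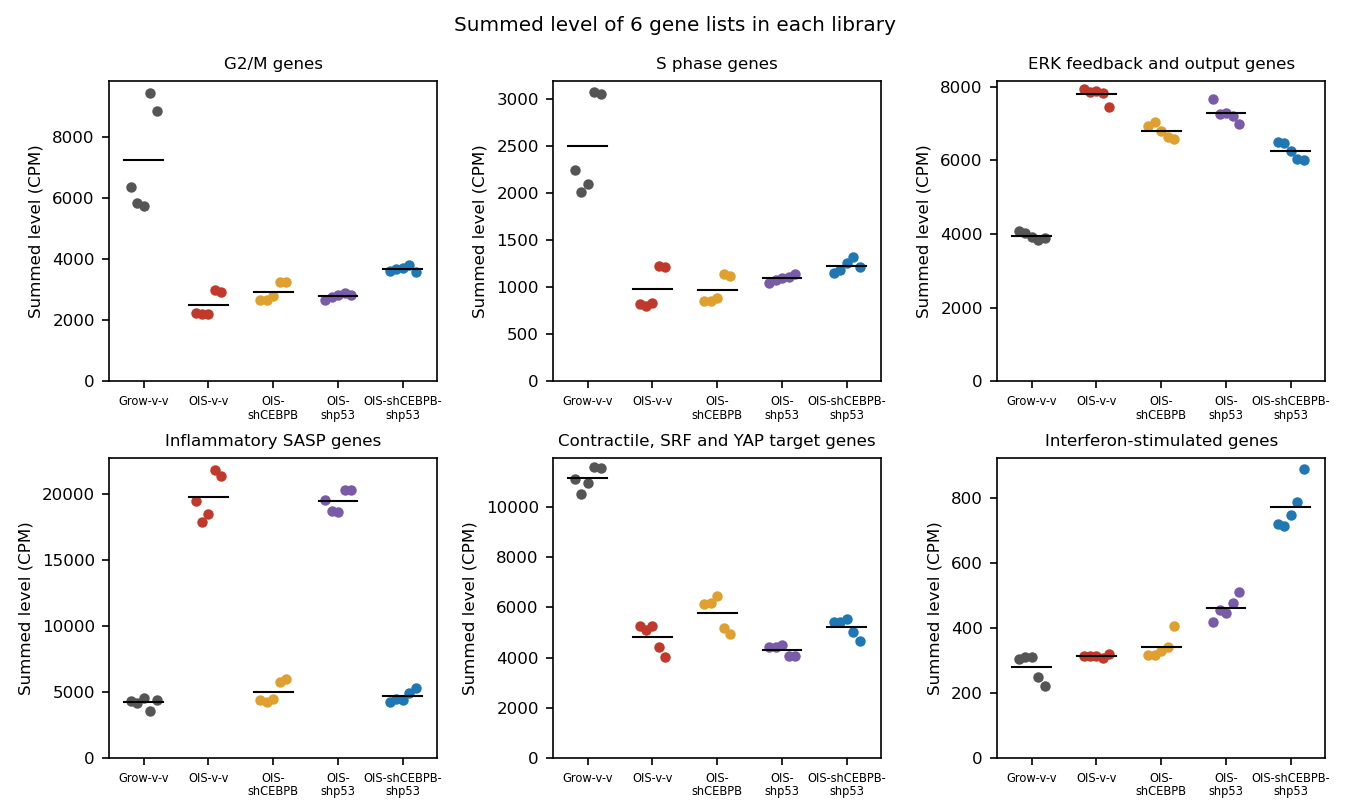
Summed level in CPM (vertical axis, from 0) of 6 gene lists in each library of 5 groups. Points are libraries in replicate order and lines are group means. In OIS-shCEBPB-shp53 the G2/M sum (3573 to 3815 CPM) lies between those of Grow-v-v and OIS-v-v, the SASP sum (4270 to 5283 CPM) is near that of Grow-v-v, and the interferon-stimulated sum (713 to 890.5 CPM) is above every other group.

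The inflammatory SASP did not rise as a whole without the 2 factors. Of 17 SASP genes tested of 22 listed, 14 rose and 2 fell in OIS-v-v, with a median log2 fold change of 2.73. In OIS-shCEBPB-shp53 6 rose (35.3%) and 4 fell (23.5%), with a median of 0.13, where 26.1% of all genes were higher and 26.8% lower. Against OIS-v-v, 14 of 18 were lower and 1 higher, with a median of -2.11, beside 21.4% and 21.9% of all genes. The summed level was 3558 to 4549 CPM in Grow-v-v, 17940 to 21850 CPM in OIS-v-v and 4270 to 5283 CPM in the double knock-down. The medians against Grow-v-v were -0.09 within replicates 1 to 3 and 0.36 within replicates 4 and 5.

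IL1B, the gene of the cytokine interleukin 1β, was at 651, 717, 739, 569 and 832 CPM in Grow-v-v, 6246, 5958, 6015, 8601 and 8710 CPM in OIS-v-v and 633, 624, 628, 719 and 776 CPM in OIS-shCEBPB-shp53. The double knock-down overlapped Grow-v-v and lay far below OIS-v-v, with log2 differences of -0.04 ± 0.09 (adjusted p = 0.717) and -3.39 ± 0.07 (adjusted p = 1.04e-10). LIF, a cytokine of the IL-6 family, showed the same order at 85.1, 99.6, 95.7, 89.1 and 98.5 CPM, 489.8, 499, 469.8, 513 and 563 CPM and 90.2, 85.7, 84, 92 and 114 CPM (-2.46 ± 0.05, adjusted p = 1.92e-10 against OIS-v-v). CSF3, which encodes G-CSF, differed from Grow-v-v by 0.13 ± 0.20 (adjusted p = 0.61) and from OIS-v-v by -3.44 ± 0.08 (adjusted p = 5.22e-10), and passed the test against Grow-v-v without replicate 5, at 0.39. CXCL8, the gene of the neutrophil chemokine IL-8, was at 1583 to 1959 CPM, 5212 to 6065 CPM and 1274 to 1730 CPM, a log2 difference of -1.99 ± 0.07 (adjusted p = 6.59e-09) from OIS-v-v. IL6, of interleukin 6, was at 571 to 782 CPM in the double knock-down and 557 to 655 CPM in Grow-v-v, with a log2 difference of 0.11 ± 0.10 (adjusted p = 0.388). CCL20, a chemokine for lymphocytes, showed the largest fall from OIS-v-v in the list, at -5.11 ± 0.18 (adjusted p = 8.03e-09).

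Other members of the list rose without the 2 factors. IL1A, the gene of interleukin 1α, an upstream inducer of the SASP, was at 29.5, 31.2, 32.1, 14.7 and 12.9 CPM in Grow-v-v, 342, 322, 326, 138 and 129.8 CPM in OIS-v-v and 188, 189, 176, 197 and 192 CPM in OIS-shCEBPB-shp53. Every double knock-down library exceeded every Grow-v-v library (3.05 ± 0.22, adjusted p = 9.93e-06), and it lay below OIS-v-v in replicates 1 to 3 and above it in replicates 4 and 5 (-0.31 ± 0.22, adjusted p = 0.273 in all). CSF2, which encodes GM-CSF, was at 36.1, 36, 43.6, 49 and 72.3 CPM, 333, 313, 320, 271 and 279 CPM and 267, 262, 259.6, 322 and 345 CPM in the same order (2.66 ± 0.10, adjusted p = 3.96e-07 against Grow-v-v), and its 95% interval against OIS-v-v ran from -0.29 to 0.14 on the log2 scale. CXCL5, a neutrophil chemokine, rose by 1.79 ± 0.12 (adjusted p = 6.06e-06) and differed from OIS-v-v by -2.29 ± 0.10, and CXCL1 rose by 0.69 ± 0.12 (adjusted p = 0.00116). CCL2, a monocyte chemokine, was at 14.1, 14.7, 14.3, 12.6 and 12.7 CPM in Grow-v-v, 9.26, 7.97, 7.04, 6.59 and 5.29 CPM in OIS-v-v and 21.6, 24.5, 25.4, 21 and 22.7 CPM in the double knock-down, where it rose in place of falling (0.76 ± 0.07, adjusted p = 5.11e-05).

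**Figure D3:**
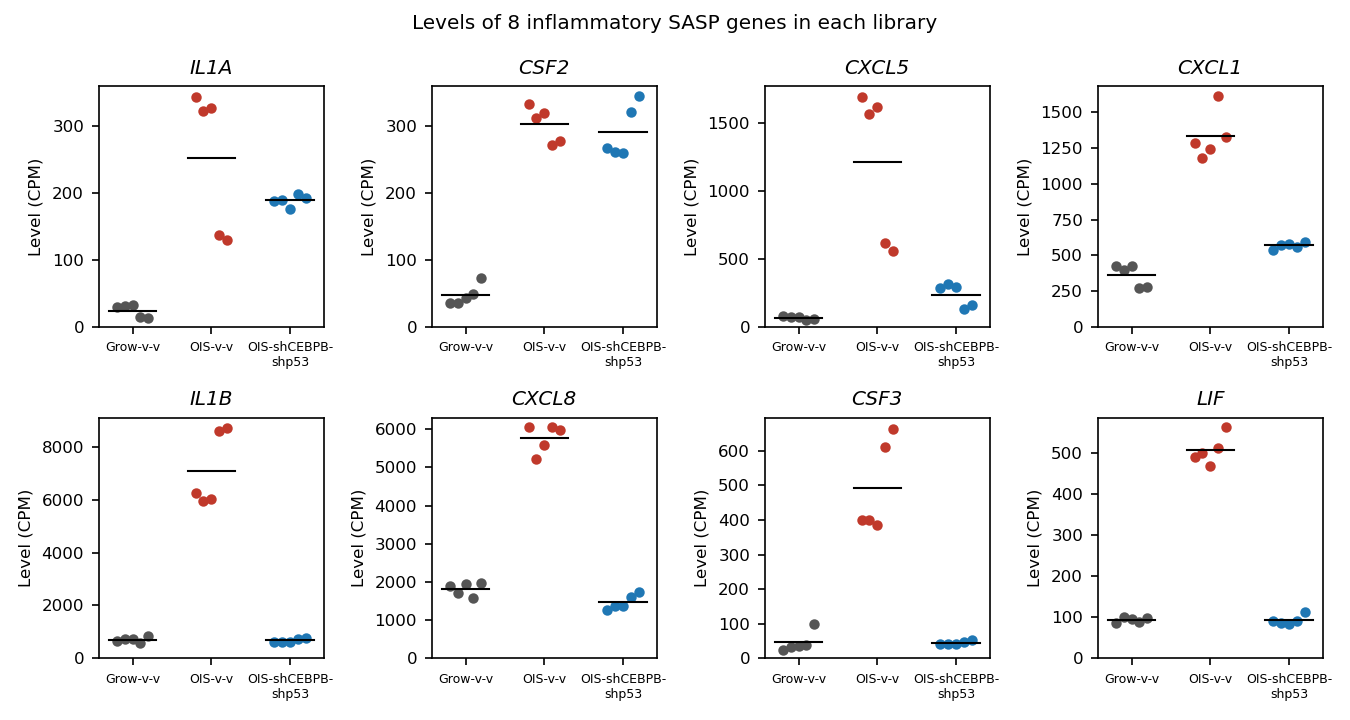
Levels in CPM (vertical axes, from 0) of 8 SASP genes in the 5 libraries each of Grow-v-v, OIS-v-v and OIS-shCEBPB-shp53. Points are libraries in replicate order and lines are group means. IL1A, CSF2, CXCL5 and CXCL1 (top) are higher in the double knock-down than in Grow-v-v in every library, whereas IL1B, CXCL8, CSF3 and LIF (bottom) overlap Grow-v-v.

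Of 13 genes of the NF-κB pathway, which drives many of these cytokines, 2 were higher (15.4%) and 3 lower (23.1%) in the double knock-down, below the 26.1% and 26.8% of all genes. BIRC3, a NF-κB target that inhibits apoptosis, was at 14.1, 16.6, 15, 22.2 and 18.7 CPM in Grow-v-v, 20.9, 20.3, 22.2, 19.4 and 14.2 CPM in OIS-v-v and 53.6, 60.2, 52.4, 59.6 and 54.3 CPM in OIS-shCEBPB-shp53, above both (1.72 ± 0.10, adjusted p = 2.2e-06 against Grow-v-v). ICAM1, an adhesion molecule, was at 119 to 210.2 CPM and overlapped the 131 to 192 CPM of Grow-v-v, with 226 to 528 CPM in OIS-v-v (-1.19 ± 0.10, adjusted p = 5.5e-06 against OIS-v-v).

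Most matrix protease genes rose. Of 14 proteases and inhibitors tested of 16, 11 rose and 3 fell in each RAS group, with medians of 0.79 in the double knock-down and 0.98 in OIS-v-v. The members were not all the same. The inhibitor gene TIMP1 fell in the double knock-down (-0.70) and rose in OIS-v-v, with a log2 difference of -1.69 between them. TIMP3 rose in the double knock-down (0.44, with 0.775 and -0.065 in the 2 sets) and fell in OIS-v-v, with a log2 difference of 1.78. The share of members that fell in the double knock-down (21.4%) was near that of all genes (26.8%), while 26.1% of all genes rose. MMP1, the interstitial collagenase, was at 3534, 3413, 3637, 1369 and 2292 CPM in Grow-v-v, 17930, 16730, 17590, 17930 and 18400 CPM in OIS-v-v and 8868, 9088, 9267, 9501 and 10450 CPM in OIS-shCEBPB-shp53. It exceeded Grow-v-v in every library (1.82 ± 0.21, adjusted p = 0.000142, with 1.37 and 2.50 in the 2 sets) and remained below OIS-v-v in every library (-0.92 ± 0.05, adjusted p = 2.42e-07). MMP14, a membrane-bound collagenase, was at 4106, 4024, 3955, 3954 and 4024 CPM in the double knock-down and 4015 to 4195 CPM in OIS-v-v, which overlapped, and at 1662 to 2437 CPM in Grow-v-v (0.93 ± 0.09, adjusted p = 5.04e-05). MMP3, stromelysin, rose by 1.39 ± 0.19 (adjusted p = 0.000358) and differed from OIS-v-v by -2.76 ± 0.05.

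Most matrix genes, which fibroblasts use to build connective tissue, fell. Of 30 extracellular matrix genes, 23 fell and 3 rose in OIS-shCEBPB-shp53, with a median of -0.89, where 26.8% of all genes were lower and 26.1% higher, and 21 fell and 3 rose in OIS-v-v, with a median of -0.73. COL1A1, the main chain of collagen I, was at 28880, 31000, 29740, 27070 and 21670 CPM in Grow-v-v, 10820, 11110, 10750, 5842 and 6882 CPM in OIS-v-v and 10970, 10320, 10310, 8635 and 8566 CPM in the double knock-down, a log2 fold change of -1.49 ± 0.08 (adjusted p = 1.61e-06) against Grow-v-v and of 0.13 ± 0.09 (adjusted p = 0.26) against OIS-v-v. DCN, the proteoglycan decorin, was lower than in OIS-v-v as well, at 149, 136, 140.3, 178 and 174 CPM, 24.9, 24.9, 24.6, 55.9 and 53 CPM and 14.4, 13, 14.5, 16.7 and 17.6 CPM (-3.34 ± 0.07, adjusted p = 2.58e-08 against Grow-v-v). POSTN, of periostin, rose to 593, 606, 591, 776 and 749 CPM from 147, 143, 140.5, 87.8 and 73.1 CPM (2.53 ± 0.22, adjusted p = 2.38e-05) and exceeded the 221 to 262 CPM of OIS-v-v. Contractile, SRF and YAP target genes fell in 16 of 17 and rose in none, with a median of -1.10, against the same shares of all genes, beside 17 of 17 and -1.34 in OIS-v-v. LMOD1, leiomodin, fell by 3.03 ± 0.13 (adjusted p = 5.91e-07) and CCN2, a YAP target also known as CTGF, by 1.56 ± 0.10 (adjusted p = 5.97e-06).

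Interferon-stimulated genes, which encode antiviral proteins and are normally induced by interferon, rose in the double knock-down. Of 24 tested of 25 listed, 22 rose in OIS-shCEBPB-shp53 and none fell, with a median log2 fold change of 2.14, where 26.1% of all genes were higher. In OIS-v-v, 5 of 21 rose and 2 fell, with a median of 0.09, and against OIS-v-v 22 of 24 were higher in the double knock-down, with a median of 2.40. Low genes entered the test through the group where they were high. With at least 10 counts demanded in every library, fewer members were tested and 13 rose. The summed level was 222 to 310.4 CPM in Grow-v-v, 309 to 320 CPM in OIS-v-v and 713 to 890.5 CPM in the double knock-down. The medians were 1.72 within replicates 1 to 3 and 2.76 within replicates 4 and 5.

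Promoters of such genes are known for the interferon-stimulated response element (ISRE), here GAAA, any 2 bases and GAAA again, on either strand. The 120 bases directly before the start are shown for 3 listed genes that rose, from RefSeq (GRCh38.p14), with ISRE matches in capitals: IFI27 at chr14:94110616-94110735 (+ strand), IFI6 at chr1:27672193-27672312 (- strand) and IFIT1 at chr10:89392503-89392622 (+ strand).
IFI27: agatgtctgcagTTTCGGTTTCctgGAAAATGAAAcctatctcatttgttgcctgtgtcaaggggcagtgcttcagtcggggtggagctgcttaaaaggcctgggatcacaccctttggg
IFI6: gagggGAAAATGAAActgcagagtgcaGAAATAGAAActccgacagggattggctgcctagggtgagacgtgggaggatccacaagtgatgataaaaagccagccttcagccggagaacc
IFIT1: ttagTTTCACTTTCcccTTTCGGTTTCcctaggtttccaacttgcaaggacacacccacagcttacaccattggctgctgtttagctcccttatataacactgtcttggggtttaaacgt
Of the 22 listed genes that rose, 16 were matched to promoter windows and 12 (75%) held the ISRE, beside 4.38% of all genes of the table and 3.88% of tested genes. This motif was searched after the list's values had been seen.

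IFI27, a mitochondrial interferon-induced protein, was at 0.921, 0.713, 0.827, 1.02 and 0.975 CPM in Grow-v-v, 2.65, 2.89, 3.55, 1.51 and 1.86 CPM in OIS-v-v and 27.9, 25.6, 32.7, 36 and 46.8 CPM in OIS-shCEBPB-shp53. The double knock-down exceeded both other groups in every library, with log2 differences of 5.22 ± 0.12 (adjusted p = 3.61e-08) and 3.73 ± 0.20 (adjusted p = 2.12e-07). IFI6, a related inhibitor of apoptosis, was at 12.5, 14.2, 14.1, 13.5 and 15.4 CPM, 24.6, 23.7, 28, 13.5 and 19.7 CPM and 139, 132, 157, 138 and 175 CPM in the same order (3.41 ± 0.08, adjusted p = 3.61e-08 against Grow-v-v). MX1, a GTPase that blocks influenza virus, was at 3.12, 2.79, 2.21, 1.49 and 0.975 CPM, 1.3, 3.31, 1.98, 3.13 and 3.0 CPM and 29.6, 28.5, 29.4, 33.1 and 40.2 CPM (3.90 ± 0.25, adjusted p = 4.35e-06). For IFI6 and MX1 too, each double knock-down library exceeded each library of the other 2 groups.

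IFIT1, which binds viral RNA, fell in OIS-v-v and rose in the double knock-down, from 5.01, 5.05, 5.07, 2.44 and 1.88 CPM in Grow-v-v to 1.13, 0.945, 1.1, 2.43 and 1.86 CPM and 15.1, 15.8, 17.7, 12.2 and 13.5 CPM (1.98 ± 0.17, adjusted p = 2.57e-05 against Grow-v-v, 3.29 ± 0.22, adjusted p = 9.89e-07 against OIS-v-v). The oligoadenylate synthetases, which activate RNase L, rose. OAS1 went from 0 to 0.153 CPM in Grow-v-v to 5.41, 4.93, 5.25, 11.2 and 13.8 CPM, OAS2 from 0.0697 to 0.831 CPM to 15.2, 17.9, 17.8, 27.3 and 30.8 CPM, and OAS3 from 26.6 to 35 CPM to 66.2, 63.3, 58.7, 94.7 and 101 CPM. For OAS1 and OAS2 replicates 4 and 5 were the highest of the double knock-down, and the log2 fold changes were 5.28 and 4.8 within replicates 1 to 3 and 8.22 and 7.09 within replicates 4 and 5. ISG15, a ubiquitin-like modifier, rose by 1.17 ± 0.12 (adjusted p = 7.68e-05) and RSAD2, which encodes viperin, by 4.43 ± 0.29 (adjusted p = 5.48e-06). Of the 2 members that did not pass, IRF9, a subunit of the interferon-activated transcription factor ISGF3 whose exons overlap another gene, had a log2 fold change of 0.02 ± 0.21 (adjusted p = 0.948). Of 22 interferon genes in the table, looked at after these values had been seen, 20 had no count in the 25 libraries, IFNB1 had 1 count, in the double knock-down, and IFNE had 102 counts over the double knock-down libraries and 103 over the Grow-v-v libraries.

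**Figure D4:**
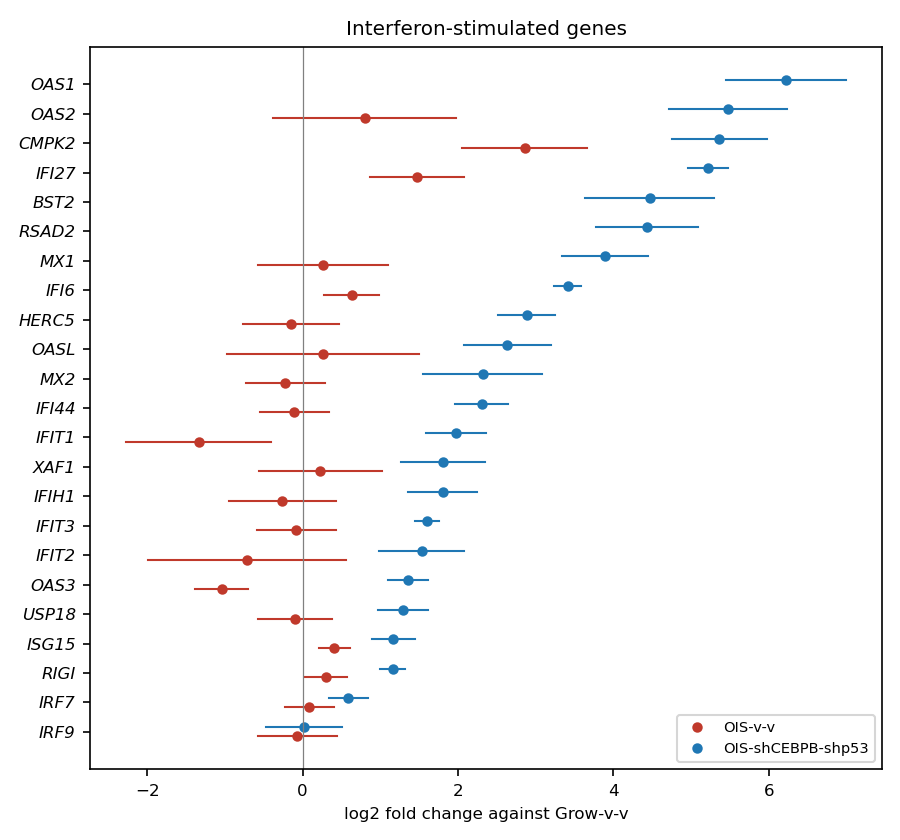
Log2 fold change against Grow-v-v (horizontal axis) of 23 of the 24 interferon-stimulated genes tested (vertical axis), in OIS-v-v (red, where tested) and in OIS-shCEBPB-shp53 (blue), with 95% intervals as lines. In the double knock-down the values run from 0.02 for IRF9 to 6.22 for OAS1, and 22 of the genes passed the test.

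The double knock-down was also compared, after the other values had been seen, with OIS-shp53, which had pSuper v and pMSCV miR p53, and with OIS-shCEBPB, which had pSuper CEBPB and pMSCV miR v, both after 6 days of 100 nM 4OHT. Against OIS-shp53, 2729 of 13428 genes were higher in the double knock-down (20.3%) and 2721 lower (20.3%), and against OIS-shCEBPB 2264 of 13418 were higher (16.9%) and 2161 lower (16.1%). Of the interferon-stimulated genes, 21 of 24 were higher than in OIS-shp53, with a median log2 difference of 0.88, and 23 of 24 higher than in OIS-shCEBPB, with a median of 1.71. Their summed level was 317 to 405 CPM in OIS-shCEBPB and 419 to 511 CPM in OIS-shp53, below the 713 to 890.5 CPM of the double knock-down. IFI6 was at 25.8 to 43.1 CPM in OIS-shCEBPB and 47.9 to 74.8 CPM in OIS-shp53. G2/M genes were higher in the double knock-down in 50 of 54 against OIS-shp53, with a median of 0.56, and in 51 of 54 against OIS-shCEBPB, with a median of 0.57, and S phase genes in 23 and 34 of 42.

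SASP genes were lower than in OIS-shp53 in 15 of 18 and higher in 1, with a median of -1.88, whereas against OIS-shCEBPB 7 of 17 were higher and 7 lower, with a median of -0.03. IL1B was at 5442 to 7314 CPM in OIS-shp53, 728 to 1120 CPM in OIS-shCEBPB and 624 to 776 CPM in the double knock-down. SERPINB4, MEDAG, IL13RA2, HSD11B1 and MRGPRX3, named above as raised by RAS and not in the double knock-down, were looked up as well. Their mean levels were 2.16, 1.34, 1.14, 0.055 and 3.91 CPM in OIS-shCEBPB. In OIS-shp53 the means were 46.3, 24.6, 6.51, 3.25 and 6.49 CPM. The p53 target genes were lower than in OIS-shCEBPB in 28 of 30, with a median of -0.77, and higher than in OIS-shp53 in 25 of 30, with a median of 0.40. CDKN1A was at 1859 to 2220 CPM in OIS-shCEBPB, 319 to 467 CPM in OIS-shp53 and 426 to 674 CPM in the double knock-down. ERK feedback and output genes were higher in 8 and lower in 9 against OIS-shp53, and higher in 10 and lower in 3 against OIS-shCEBPB. Their summed level was 6011 to 6492 CPM in the double knock-down, 6593 to 7031 CPM in OIS-shCEBPB and 6987 to 7662 CPM in OIS-shp53. Of 17 contractile, SRF and YAP target genes, 12 were higher and 0 lower in the double knock-down against OIS-shp53, with a median of 0.34. Against OIS-shCEBPB 1 was higher and 9 were lower, with a median of -0.14.

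The remaining lists are read against the 26.1% of all genes that were higher and the 26.8% that were lower. Of 18 ribosome biogenesis genes, 10 rose and 1 fell in the double knock-down, with a median of 0.37, and 11 rose and 1 fell in OIS-v-v. POLR1B, a subunit of RNA polymerase I, was at 17.9 to 24 CPM in Grow-v-v and 28.3 to 39.6 CPM in the double knock-down (0.72 ± 0.09, adjusted p = 0.000178). Of 24 glycolysis and hypoxia genes 10 rose and 6 fell, among them VEGFA, the angiogenic growth factor, which rose by 1.44 ± 0.12 (adjusted p = 1.82e-05), and GAPDH, which fell by 0.44 ± 0.08 (adjusted p = 0.00227). Of 23 cholesterol genes tested of 24, 6 rose (26.1%) and 5 fell (21.7%), near the shares of all genes. Of 11 senescence chromatin and lysosome markers, 2 rose and 6 fell, including LMNB1, of lamin B1, which was at 93.2, 87.5, 83.7, 142 and 120.4 CPM in Grow-v-v, 16.2, 15.4, 13.5, 24.9 and 24.7 CPM in OIS-v-v and 29.9, 31.8, 33.2, 31.2 and 28.8 CPM in the double knock-down, between the other 2 groups with no overlap. IGF-binding proteins fell in 5 of 7 and rose in 2. IGFBP5 was at 3823, 4103, 3691, 4030 and 2756 CPM in Grow-v-v, 2966, 3186, 2878, 3361 and 3051 CPM in OIS-v-v and 1083, 1067, 958, 915 and 879.5 CPM in the double knock-down, below both (-1.89 ± 0.09, adjusted p = 7.2e-07 against Grow-v-v).

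Over all genes, the largest rises were of genes close to 0 in Grow-v-v. CST1 (hg19 chromosome 20, 23728190 to 23731905 on the minus strand), which encodes the secreted protease inhibitor cystatin SN, was at 3.43, 3.92, 3.86, 1.56 and 2.58 CPM in Grow-v-v, 149, 138, 149.5, 102 and 106 CPM in OIS-v-v and 1601, 1570, 1612, 966 and 1046 CPM in OIS-shCEBPB-shp53. The 3 groups did not overlap, and the log2 difference was 8.81 ± 0.11 (adjusted p = 1.35e-09) from Grow-v-v and 3.37 ± 0.05 (adjusted p = 5.2e-11) from OIS-v-v. TNFSF11, which encodes RANKL, the inducer of osteoclasts, had no count in Grow-v-v and 3.66, 4.08, 3.27, 2.49 and 3.04 CPM in the double knock-down, at least 98.7-fold higher against a floor of 3 counts over the group. TMEM233, a transmembrane gene, also had no count in Grow-v-v and was at least 69.7-fold higher at 0.834 to 3.27 CPM. SPNS2, a transporter of sphingosine 1-phosphate, had 2 counts in Grow-v-v and 634 in the double knock-down, a ratio of 314 (95% counting interval 86.6 to 2599), with 0.954 to 12 CPM in the double knock-down, where replicates 1 to 3 were the highest. TUNAR, a long non-coding RNA, had 1 and 287 counts, a ratio of 284 (50.6 to 11270), and ENSG00000227363, given above, was the other. Floors and intervals cover counting error only.

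Among the largest falls were 2 secreted factors. CXCL12, the chemokine SDF-1, was at 6.04, 6.29, 7.0, 14 and 17.8 CPM in Grow-v-v and 0.106, 0.161, 0.0583, 0.318 and 0.0596 CPM in the double knock-down (-6.05 ± 0.27, adjusted p = 6.81e-07), beside 0.113 to 0.472 CPM in OIS-v-v. FGF7, keratinocyte growth factor, fell from 31.1, 27.2, 28, 20.5 and 15.7 CPM to 1.38, 1.18, 1.34, 1.38 and 1.19 CPM (-4.21 ± 0.14, adjusted p = 1.79e-07). In both genes the groups were separate. HSD11B1, given above, fell by 5.03 ± 0.34 (adjusted p = 6.59e-06), KRTAP1-5, a keratin-associated protein, by 3.81 ± 0.36 (adjusted p = 4.32e-05), PDE7B, a phosphodiesterase of cyclic AMP, by 3.65 ± 0.27 (adjusted p = 9.23e-06) and ITGBL1, an integrin-like protein, by 3.61 ± 0.39 (adjusted p = 9.77e-05), with log2 fold changes for ITGBL1 of -2.64 and -4.91 in the 2 sets.

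Some changes were not called, went the other way or could not be tested in OIS of the separate experiment. MMP9, BEAN1 and AFP did not pass the count filter there. Mean levels in that experiment were 0.0425 CPM in Grow and 0.875 CPM in OIS for MMP9, and 0.0236 and 0.504 CPM for BEAN1. For AFP they were 0.497 and 0.224 CPM. MMP9, a gelatinase, was at 0.0512, 0, 0, 0.0678 and 0.139 CPM in Grow-v-v, 1.69, 2.83, 3.08, 1.03 and 0.961 CPM in OIS-v-v and 4.78, 4.13, 3.38, 5.88 and 5.18 CPM in OIS-shCEBPB-shp53, and differed from OIS-v-v by 1.30 ± 0.31 (adjusted p = 0.0065). BEAN1, a binding partner of the ubiquitin ligase NEDD4, had 2 counts in Grow-v-v and 198 in the double knock-down, a ratio of 98.1 (26.8 to 815.5), and was at 0.601 to 4.77 CPM in OIS-v-v. IL24, a cytokine of the IL-10 family, was at 35.8, 44.8, 47.9, 11.7 and 21.6 CPM in Grow-v-v, 46.4, 40.6, 42.2, 34.4 and 38.9 CPM in OIS-v-v and 3.61, 4.08, 3.21, 2.65 and 3.34 CPM in the double knock-down, below both in every library (-3.14 ± 0.21, adjusted p = 6.59e-06 against Grow-v-v). SLC35F3, a thiamine transporter, fell by 3.34 ± 0.23 (adjusted p = 6.79e-06) and LINC00475, a long non-coding RNA, by 2.63 ± 0.12 (adjusted p = 8.26e-07). AFP, alpha-fetoprotein, passed as lower (-2.42 ± 0.49, adjusted p = 0.00304) with Grow-v-v libraries at 7.72, 3.15, 0.827, 0.61 and 0.906 CPM, of which replicates 1 and 2 were the highest.

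The libraries held the transcripts of fibroblasts. Of 15 fibroblast markers tested of 16, 2 rose and 9 fell in the double knock-down, where 26.1% and 26.8% of all genes did, and their summed level was 38820 to 49550 CPM in Grow-v-v and 19020 to 22760 CPM in OIS-shCEBPB-shp53. S100A4, a calcium-binding protein on this list, rose to 51.8 to 74.2 CPM from 17.9 to 26.1 CPM (1.43 ± 0.13, adjusted p = 2.67e-05), while it fell in OIS-v-v (-0.75 ± 0.15, adjusted p = 0.00387). Of the markers of other cells, KRT5, KRT14, SFTPB and SFTPC of 10 epithelial markers, and 2 of 6 leukocyte markers, CD3E among them, had no count in any of the 10 libraries. The epithelial markers KRT18, KRT8, CLDN4, EPCAM and KRT19 had 11831, 3595, 893, 104 and 99 counts over the 10 libraries. Each of these was detected in every library, and CDH1 had 2 counts. None of the 5 endothelial markers matched lacked counts, and TEK had the most, 13902. Among the leukocyte markers CSF1R had the most, 234. The summed levels were 70.5 to 140 CPM in Grow-v-v and 93.3 to 102 CPM in the double knock-down for the epithelial markers, 80.5 to 117 and 59.6 to 67.8 CPM for the 5 endothelial markers matched, and 1.65 to 2.20 and 0.966 to 1.70 CPM for the leukocyte markers.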

How the data were processed

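RNA-Seq read counts per gene were analysed for IMR90 ER:HRAS G12V cells. The authors deposited raw counts made by aligning reads to hg19 with STAR and counting exon reads with featureCounts of Subread (version 1.5.2 per the file headers of the first table, which was counted without strand; the second table has no header). Libraries were made with one of 2 stranded kits and run on one of 2 sequencers, and the sources used here do not link either to a library. Groups came from the labels, 5 libraries each in the main experiment and 8 Grow and 8 OIS in the separate one, and 16 other library columns of the first table were not mapped or used.

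Counts were filtered with filterByExpr (minimum count 10), scaled by TMM and fitted per pair of groups by edgeR 4.0.16 quasi-likelihood (R 4.3.3, limma 3.58.1), with the replicate number as a block and Benjamini-Hochberg adjustment over all genes tested. DESeq2 1.42.0 was an alternative. Log2 fold changes are edgeR's, and the SE after ± is the fold change divided by the square root of its F statistic. The libraries are called biological replicates in the labels, and p-values measure the spread between them. The block was kept because same-numbered libraries deviated together: the correlation of their deviations was 0.146 to 0.26 for OIS-shCEBPB-shp53 and Grow-v-v, 0.134 to 0.287 for OIS-v-v and Grow-v-v, and 0.265 to 0.425 for the 2 RAS groups, each above 0.1. The highest correlation with another number was 0.044 to 0.27, 0.103 to 0.251 and 0.285 to 0.469, so that a library did not always correlate best with its own number. No pair of libraries agreed within sampling noise. The scripts were tested on simulated data.

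Members and gene lists were chosen with earlier results of these data known. Beyond list members, genes were named by rule, at a mean of at least 1 CPM: the 6 largest rises and 6 largest falls against Grow-v-v without overlap (the targeted genes set aside), the 5 RAS-raised and 5 RAS-lowered genes most changed whose 95% interval against OIS-v-v lay within 1.5-fold, the 5 and 5 furthest from OIS-v-v with no change past the threshold in the RAS direction, and the 5 and 5 largest changes without overlap not called the same way in the separate experiment. The last rule also took genes that could not be tested there. The comparisons with single knock-downs, the ISRE search, the look-up of interferon genes and the alternatives that split replicates 1 to 3 from 4 and 5 were chosen after seeing the data. Symbols were found for 12867 of the 13395 genes tested and for 444 of 450 list entries. Gene positions are those of the deposited hg19 annotation, 1-based. Some genes are not reported here.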

Additional observations from a re-analysis of the deposited data

Results flagged for a closer look

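In 12 of 260 groups of 5 values, 1 library lay far from the other 4, by Dixon's test at a critical value of 0.71, which chance gives in about 1 of 20 groups. In Grow-v-v, 7 of the 12 were replicate 5, with 1842 CPM of HRAS, 99.5 CPM of CSF3, 300.4 CPM of SERPINB2, 837.5 CPM of TIMP1, 3.28 CPM of IL13RA2, 0.0697 CPM of TUNAR and 0.279 CPM of ENSG00000227363. Grow-v-v replicate 4 stood apart in TOP2A at 467 CPM. In OIS-shCEBPB-shp53, replicate 5 stood apart in CEBPD at 171 CPM and in LIF at 114 CPM, replicate 1 in MDM2 at 51.7 CPM and replicate 3 in PCNA at 52.8 CPM.

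Levels after 6 days of 4OHT differed between OIS-shCEBPB-shp53 and OIS-v-v, tested as the difference between the groups in edgeR. In the double knock-down 2938 genes were higher and 2868 were lower. Without growing double knock-down libraries, a changed response to RAS and an effect of the knock-downs in growing cells cannot be told apart here. Of 130 named genes, 17 moved in opposite directions from Grow-v-v in the 2 groups, each past the threshold. Those lower in the double knock-down than in OIS-v-v had log2 differences of -1.56 for CDKN1A, -2.86 for BTG2, -1.36 for SPATA18, -1.99 for CXCL8, -5.11 for CCL20, -1.69 for TIMP1, -3.86 for MRGPRX3, -3.80 for MEDAG and -3.66 for IL13RA2. Those higher had log2 differences of 1.66 for CCL2, 1.78 for TIMP3, 2.17 for S100A4, 3.29 for IFIT1, 2.39 for OAS3, 4.82 for SLC7A14, 3.18 for APCDD1 and 2.88 for TNFSF18. Of these, the call of the double knock-down against Grow-v-v was lost, once the libraries of replicates 1 to 3 and of 4 and 5 were summed, for APCDD1, CXCL8, CCL20, TIMP3 and MRGPRX3 in edgeR (adjusted p = 0.126, 0.317, 0.064, 0.199 and 0.166).

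In libraries outside the comparison with Grow-v-v, the summed level of interferon-stimulated genes had a median of 330.9 CPM in OIS-shCEBPB and 456 CPM in OIS-shp53, above the highest Grow-v-v library at 310.4 CPM. The OIS-v-v libraries ran from 309.2 to 320 CPM and overlapped those of OIS-shCEBPB, at 317.3 to 405.4 CPM, but not those of OIS-shp53, at 419.2 to 510.8 CPM.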

How the results depend on the processing

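Of the recomputed counts that answer a comparison, 478 stayed within 1.5 times the reported count and 40 did not. Under a fold change of at least 1.5, OIS-shCEBPB-shp53 against Grow-v-v gave 1666 higher and 1795 lower genes, OIS-v-v against Grow-v-v 1690 and 2017, OIS-shCEBPB-shp53 against OIS-v-v 1150 and 784, and 6 lower p53 target genes. At least 2-fold, these were 840 and 827, 858 and 1133, 509 and 338, and 2, with 446 RAS-raised genes higher, 579 RAS-lowered genes lower, 24 S phase genes lower, 5 proteases higher, and 11 matrix and 9 contractile genes lower. Fewer genes pass these rules by construction. With library sizes alone, OIS-shCEBPB-shp53 against OIS-v-v gave 4431 higher and 1778 lower genes, and the median of all genes moved to 0.096. With at least 10 counts in every library, fewer interferon-stimulated genes were tested and 13 rose. RAS response genes of at least 4-fold gave 224 raised genes that were higher and 440 lowered genes that were lower.

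The fit with no replicate block called 3221 higher and 3461 lower genes against Grow-v-v, 3023 and 3091 in OIS-v-v against Grow-v-v, and 2293 and 2209 between the RAS groups, with none of opposite sign among shared calls. Of the named genes, SPATA18 and MRGPRX3 lost their call without the block. Leaving out 1 replicate number gave 2978 to 3761 higher and 2883 to 3758 lower genes against Grow-v-v, and 2346 to 3115 and 2203 to 3015 between the RAS groups. Leaving out 1 library, with no block, gave 1924 to 2717 higher and 1815 to 2604 lower genes between the RAS groups. The low counts of lower genes were 1899, 1861, 1895 and 1867 without double knock-down replicates 1 to 4, and 1815, 1883 and 1841 without OIS-v-v replicates 1 to 3, and 9 p53 target genes were lower without double knock-down replicate 5. CXCL8, HK2, IGFBP1, MRGPRX3, TIMP3 and UNG each lost their call without at least 1 replicate number, and CCL20, CCND1, CDKN1A and SPATA18 without at least 1 library in fits with no block.

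Alternatives chosen after seeing the data split the sets of libraries. Summed into 2 sums per group, they gave 2080 higher and 2008 lower genes against Grow-v-v, 1779 and 1928 in OIS-v-v against Grow-v-v, and 1484 and 1173 between the RAS groups, with fewer sums per group. In replicates 1 to 3 alone the log2 fold change turned to -0.17 for MDM2, 0.15 for FOSL1 and -0.38 for PTGS2, and in replicates 4 and 5 alone to 1.25 for AREG and -0.065 for TIMP3. The cause was not tested. Of 130 named genes, 100 kept their direction and side of the threshold under every alternative.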
